A study of Drosophila melanogaster with 7 samples.

Results

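The small nuclear RNA (snRNA) genes are the genes whose symbol in the fly annotation begins with snRNA:, and 31 of the 17753 genes in the gene-body table were of this kind. They were grouped by the U number in the symbol into U1 (5 genes), U2 (6), U4 (3), U5 (7) and U6 (3), with 1 gene each for U4atac, U6atac, U7, U11, U12, 7SK and LU. Not all of them are spliceosomal, whatever the name of the set: 7SK RNA holds back the elongation factor P-TEFb, U7 RNA acts in the formation of histone mRNA 3′ ends, and no role is given here for LU.

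GRO-seq (global run-on sequencing), which labels RNA that engaged polymerases extend in isolated nuclei, was carried out on hand-staged Drosophila melanogaster embryos of cycle 14, the stage at which the zygotic genome is activated at large scale. The 4 TM (triple mutant) libraries came from embryos in which the 3 histone H3 lysine 9 methyltransferases had been removed or depleted, through a Su(var)3-9 knockout combined with maternal germ line shRNA against dSetDB1 (the gene egg) and G9a, and the 3 ctr libraries were labelled wildtype. Column names give the crosses as NI762xNI746 for TM and T180xNI746 for ctr, so both groups share a parent NI746, whose alleles the labels do not state. The shRNA was driven in the mothers by a maternal tubulin Gal4 driver, each library pooled many whole embryos, and in such bulk material fewer cells of a type and less RNA per cell cannot be told apart.

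The spliceosome is built from RNA and protein particles, each around 1 snRNA: U1 pairs with the 5′ splice site, U2 with the branch point, and U6, released from U4, joins with U2 to form the catalytic center, while U5 holds the exons. U11, U12, U4atac and U6atac replace U1, U2, U4 and U6 in the minor spliceosome, which removes a rare class of introns. Most snRNA genes are read by RNA polymerase II, but U6, U6atac and 7SK are read by RNA polymerase III. In flies both kinds of promoter carry a proximal sequence element bound by the complex SNAPc, and the polymerase III promoters carry a TATA box in addition.

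Total assigned counts in the gene-body table lay between 18889493 and 22200059 in TM and between 19547254 and 21298129 in ctr, and in the exon table between 33119922 and 35131766 in TM and between 29391697 and 31509516 in ctr. The snRNA genes took 0.0987% to 0.127% of gene-body counts in TM and 0.1274% to 0.1508% in ctr. Of exon-table counts they took 0.1516% to 0.2031% in TM and 0.1948% to 0.2214% in ctr, and there the groups overlapped. The targeted genes were read for their nascent transcription only, which RNA interference need not lower: egg differed by a log2 fold change of 0.13 (adjusted p = 0.729, edgeR) and G9a by -0.02 (adjusted p = 0.930) in the gene-body table. Su(var)3-9 had 0 gene-body counts in every library, and in the exon table it had 131, 126, 122 and 119 CPM (counts scaled to the size of the library) in TM replicates 1 to 4, against 156, 138 and 135 CPM in ctr replicates 1 to 3, so this gene's reads did not check its knockout. The 4 cycle 14 marker genes slam, nullo, bnk and Sry-alpha, 3 of them with gene-body counts, summed to between 1568.8 and 5871.3 CPM in TM, with TM replicate 1 highest and TM replicate 4 lowest, and to between 2207.6 and 3128.3 CPM in ctr.

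The promoters of the snRNA genes came in 2 kinds, with and without a TATA box match. In the 80 bases before the annotated start, every one of the 31 genes held the letters ATTCNCAA, the core of the fly proximal sequence element, on its own strand, starting between positions -65 and -56. The same letters stood on either strand in 1.74% of 17676 windows of the same length before the starts of all genes. A TATA box match (TATAAA or TATATA, own strand, overlaps allowed) lay between positions -31 and -28 in all 5 polymerase III genes and in 0 of the 25 polymerase II genes and not in LU, while 20.6% of all windows held one on either strand and 0.322% held both motifs. The 5 polymerase III promoters are shown because U6atac and 7SKa fell in TM and U6 is the other RNA read by this polymerase. Capitals mark the motif matches, sequences run 5′ to 3′ on the strand of the gene, and sequences and coordinates are those of the RefSeq copy of the dm6 genome.
snRNA:U6:96Aa (chr3R:24556008-24556087, plus strand): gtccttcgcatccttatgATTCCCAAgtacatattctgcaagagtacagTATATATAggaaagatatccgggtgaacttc
snRNA:U6:96Ab (chr3R:24556612-24556691, plus strand): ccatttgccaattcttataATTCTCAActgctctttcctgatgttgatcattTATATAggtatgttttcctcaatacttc
snRNA:U6:96Ac (chr3R:24557135-24557214, plus strand): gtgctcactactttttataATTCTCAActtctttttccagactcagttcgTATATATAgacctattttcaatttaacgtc
snRNA:U6atac (chr2L:8389644-8389723, plus strand): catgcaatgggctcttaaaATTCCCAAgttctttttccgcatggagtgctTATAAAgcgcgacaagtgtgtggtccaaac
snRNA:7SKa (chr3R:7474997-7475076, minus strand): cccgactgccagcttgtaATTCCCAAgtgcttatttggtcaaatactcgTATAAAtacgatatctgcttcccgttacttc

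Polymerase II promoters have the element but no TATA box match in the window, as these 4, from genes named in the results, show.
snRNA:U1:82Eb (chr3R:4948097-4948176, minus strand): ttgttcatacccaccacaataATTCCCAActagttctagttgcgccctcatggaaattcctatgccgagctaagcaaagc
snRNA:U2:34ABa (chr2L:13212117-13212196, minus strand): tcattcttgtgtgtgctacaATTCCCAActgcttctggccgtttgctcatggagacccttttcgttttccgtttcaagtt
snRNA:U2:34ABb (chr2L:13215759-13215838, plus strand): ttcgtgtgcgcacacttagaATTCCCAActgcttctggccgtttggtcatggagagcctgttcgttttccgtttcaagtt
snRNA:U5:38ABb (chr2L:19816334-19816413, plus strand): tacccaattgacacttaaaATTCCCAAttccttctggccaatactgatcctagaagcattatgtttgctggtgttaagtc

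**Figure D1:**
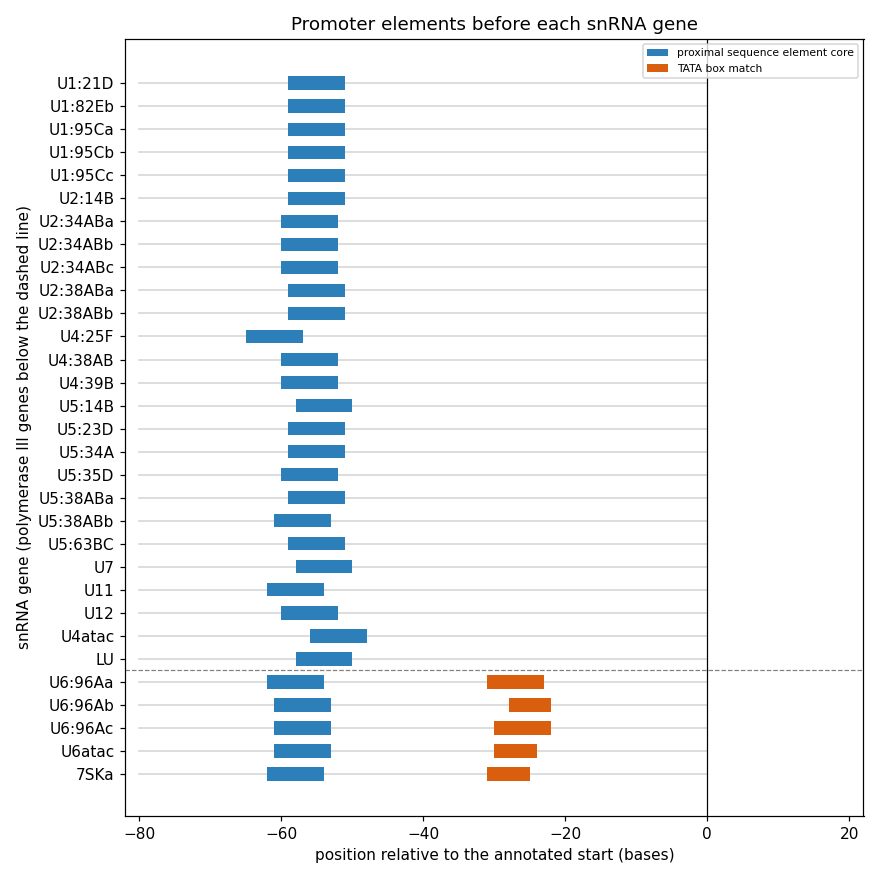
Position of each motif match (bases from the annotated start, horizontal axis) before the 31 snRNA genes, with blue bars for ATTCNCAA and orange bars for TATAAA or TATATA. Blue bars stand between -65 and -56 at their left ends in every row, and orange bars only in the 5 rows below the dashed line, the polymerase III genes; LU, whose polymerase was not assigned, is drawn above it.

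The sequence at the annotated 3′ ends of the polymerase III genes also differed. A run of at least 4 T stood at or just past the annotated end in all 5 of these genes and in 0 of the other 26. The ends of the transcripts themselves were not measured. The RNA of U6atac, the catalytic RNA of the minor spliceosome, is shown because its gene fell most clearly and its reads can be placed uniquely.
snRNA:U6atac RNA (chr2L:8389724-8389820, plus strand): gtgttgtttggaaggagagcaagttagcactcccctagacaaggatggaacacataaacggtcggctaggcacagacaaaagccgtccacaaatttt

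The 3 U6 genes lie in tandem on chromosome arm 3R and their RNAs were identical, so that 0% of their 30-base words occurred once in the genome. U6atac and 7SKa were the opposite case, since 100% of their 30-base words occurred once. In the gene-body table, from which reads of low mapping quality had been removed, snRNA:U6:96Ab and snRNA:U6:96Ac had 361 and 327 counts over the 7 libraries. In the exon table, snRNA:U6:96Aa was credited with 100%, 100%, 79.9% and 65.8% of the U6 counts in TM replicates 1 to 4. In ctr replicates 1 to 3 it was credited with 99.2%, 100% and 100%. Reads of these identical genes were thus not divided evenly among them in that table. The share of snRNA:U6:96Aa was lower in TM replicates 3 and 4 than in all other libraries. Values for a single U6 gene are therefore uncertain, and the sum over the 3 genes is given beside them. The annotation sets a second limit: 11 of the 31 genes lie inside another gene on the same strand, and all 11 had 0 gene-body counts, because a read over 2 genes was not assigned. The other 20 all had gene-body counts and all 20 passed the filter of a mean of 10 counts, whereas all 31 passed it in the exon table.

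In TM embryos, all 4 tested snRNA genes read by polymerase III had lower gene-body levels than in ctr embryos and 2 of them passed the test, against 1 of 16 of those read by polymerase II. Of the 20 genes tested in the gene-body table, 3 fell and 0 rose in TM at an adjusted p under 0.05 (edgeR quasi-likelihood test, Benjamini-Hochberg over 10917 genes). The genes that fell were snRNA:U6atac, snRNA:7SKa and snRNA:U2:34ABa. Over all genes tested, 6.38% fell and 4.45% rose, 10.8% in either direction. At an unadjusted p under 0.05 (edgeR), 1 snRNA gene was higher and 9 were lower. DESeq2 called 0 higher and 4 lower, the fourth being snRNA:U6:96Ac. The shares over all genes were not computed for these counts, so they have no background to be read against. All 4 TM libraries lay below all 3 ctr libraries for 8 of the 20 genes, against 12.5% of all genes tested. They lay above them for 1 of the 20, and the share of all genes above was not computed. The median log2 fold change was -0.33 over the snRNA genes and 0.029 over all genes. The division by polymerase was chosen after these values were seen: the median was -1.75 over the 4 polymerase III genes tested, all 4 of them with TM libraries below every ctr library, and -0.22 over the 16 polymerase II genes, 4 of them below.

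**Figure D2:**
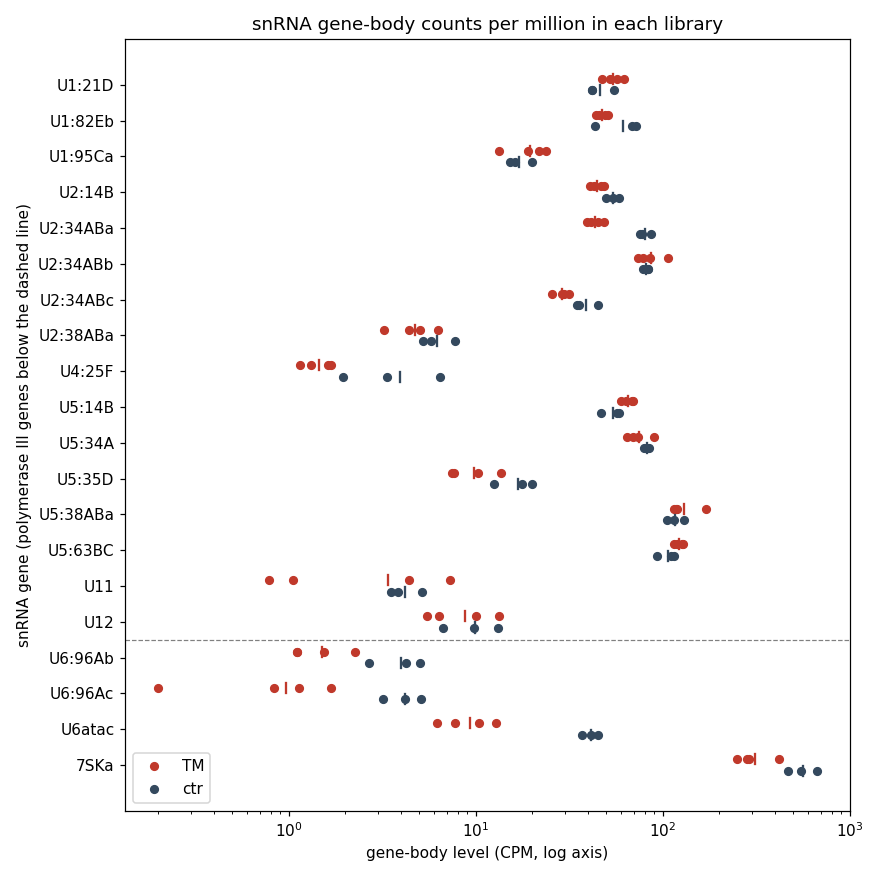
Gene-body level (CPM, log axis) of the 20 snRNA genes with counts, with a point for each of the 4 TM libraries (red, upper row of each gene) and 3 ctr libraries (dark, lower row) and a bar at the group mean. The red and dark points are apart for all 4 polymerase III genes below the dashed line and for U2:34ABa, and mix for most polymerase II genes.

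snRNA:U6atac, the minor spliceosome counterpart of U6 (chr2L:8389724-8389820, plus strand), showed the largest difference among the called genes. It had 282, 171, 198 and 124 counts in TM replicates 1 to 4, against 871, 865 and 699 counts in ctr replicates 1 to 3. Scaled to library size these were 12.8, 7.77, 10.4 and 6.20 CPM in TM and 45.3, 41.3 and 36.8 CPM in ctr. Every TM library was far below every ctr library, with TM replicate 1 the highest of the TM libraries. Its log2 fold change was -2.15 (SE 0.24, adjusted p = 2.22e-05, edgeR), or 0.226 times the ctr mean. In the exon table snRNA:U6atac had 8.55, 4.80, 5.41 and 4.5 CPM in TM and 32.0, 27.3 and 24.4 CPM in ctr, a log2 fold change of -2.26 (SE 0.23, adjusted p = 2.1e-05, edgeR), and the groups were as far apart there.

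snRNA:7SKa, the RNA that holds P-TEFb inactive (chr3R:7474553-7474996, minus strand), was the most strongly covered snRNA gene per length in ctr gene bodies. It had 421, 282, 290 and 250 CPM in TM replicates 1 to 4, against 667, 550 and 470 CPM in ctr replicates 1 to 3. The groups did not overlap, and the gap between the highest TM library, replicate 1, and the lowest ctr library, replicate 3, was small beside the spread within ctr. The log2 fold change was -0.85 (SE 0.19, adjusted p = 0.0216, edgeR) in the gene-body table and -0.85 (SE 0.17, adjusted p = 0.0186) in the exon table. This call was lost on leaving out TM replicate 2 (adjusted p = 0.0513), TM replicate 3 (0.0506) or TM replicate 4 (0.0713) and with no count filter (0.0592), and in the exon table under these settings and without ctr replicate 2. The log2 fold change stayed between -1.04 and -0.71 over all 14 alternatives. A second 7SK gene of the annotation, snRNA:7SKb, was not analysed here.

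The U6 genes, which supply the catalytic RNA of the major spliceosome, had lower TM values without passing the edgeR test, though DESeq2 called snRNA:U6:96Ac lower. Their values are given although only snRNA:U6:96Ab was chosen by the naming rule; the others were added after their values were seen. snRNA:U6:96Ab had 50, 34, 21 and 22 gene-body counts in TM replicates 1 to 4, against 97, 56 and 81 in ctr replicates 1 to 3. snRNA:U6:96Ac had 37, 25, 16 and 4 in TM, against 98, 67 and 80 in ctr. All TM libraries were below all ctr libraries for both, with TM replicate 1 again the highest of TM. Log2 fold changes were -1.40 (SE 0.65, adjusted p = 0.199, edgeR) for snRNA:U6:96Ab and -2.10 (SE 0.78, adjusted p = 0.102) for snRNA:U6:96Ac.

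In the exon table, snRNA:U6:96Aa had 2778, 792, 635 and 572 counts in TM replicates 1 to 4, against 4049, 3292 and 2826 in ctr replicates 1 to 3. TM replicate 1 was close to the ctr libraries, and the other 3 TM libraries stood far below both. The log2 fold change was -1.64 (SE 0.63, adjusted p = 0.248, edgeR). Without TM replicate 1 it was -2.42 (SE 0.14, adjusted p = 4.57e-07, edgeR), a setting added after seeing the data. Leaving out any other single library gave -1.74 to -1.42, with adjusted p from 0.335 to 0.468 (edgeR), so only the fit without the outlying library passed. Summed over the 3 identical genes, U6 lay between 22.5 and 78.6 CPM in TM and between 93.8 and 134 CPM in ctr, 0.353 times the ctr mean, though the fitted values for snRNA:U6:96Ab and snRNA:U6:96Ac were positive there: snRNA:U6:96Ab had 0 counts in 3 TM and all ctr libraries and 154 in TM replicate 4. TM replicate 1 was also the TM library with the most cycle 14 marker reads (5871.3 CPM, gene-body table), and the part of embryo stage in these values was not tested.

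**Figure D3:**
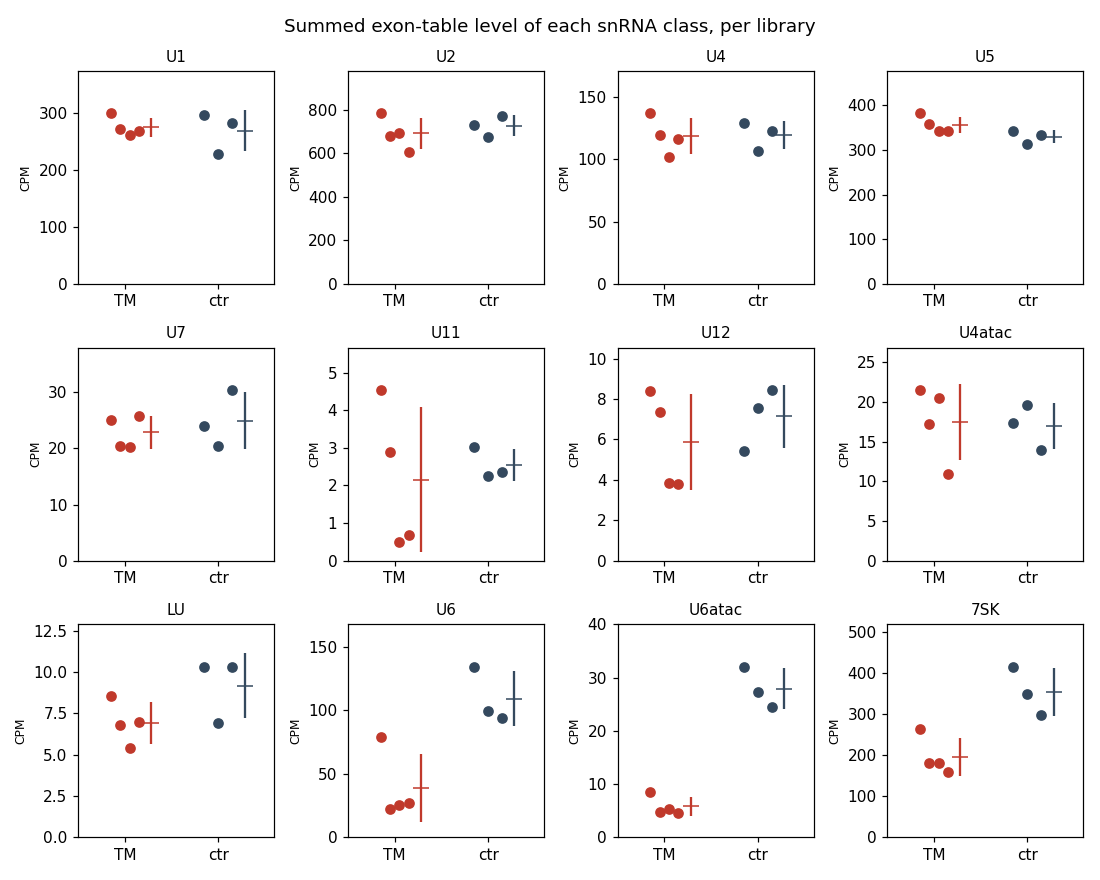
Summed exon-table level (CPM, axis from 0) of each of the 12 snRNA classes in the 4 TM and 3 ctr libraries, with the mean ± SD beside the points. TM points lie below all ctr points for U6, U6atac and 7SK, the last 3 panels, and overlap with ctr in U1, U2, U4, U5, U7, U11, U12, U4atac and LU, except that for U5 the overlap is by a narrow margin.

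Summed over classes, polymerase II and polymerase III snRNAs parted in the exon table. The 25 polymerase II genes summed to between 1373.4 and 1661.5 CPM in TM and between 1374.8 and 1564.9 CPM in ctr, a ratio of means of 0.996. The 5 polymerase III genes summed to between 189 and 350 CPM in TM and between 416 and 580 CPM in ctr, a ratio of 0.489. snRNA:7SKa made up most of this sum, with means of 196 of 240 CPM in TM and 353 of 490 CPM in ctr. The polymerase II and polymerase III sums were taken in the same libraries, and no test was run on them. Of all 31 genes in the exon table, 3 fell, against 3.08% of 17281 features, and 1 rose, against 2.82%. For 6 of 31 genes all TM libraries were below all ctr libraries, against 9.95% of features. For 4 of 31 genes they were above all ctr libraries, and the share of all features above was not computed. Among the 25 polymerase II genes, 3 were below and 4 above. The genes that fell were snRNA:U6atac, snRNA:7SKa and snRNA:U2:34ABa in both tables, which hold the same libraries and are not independent.

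**Figure D4:**
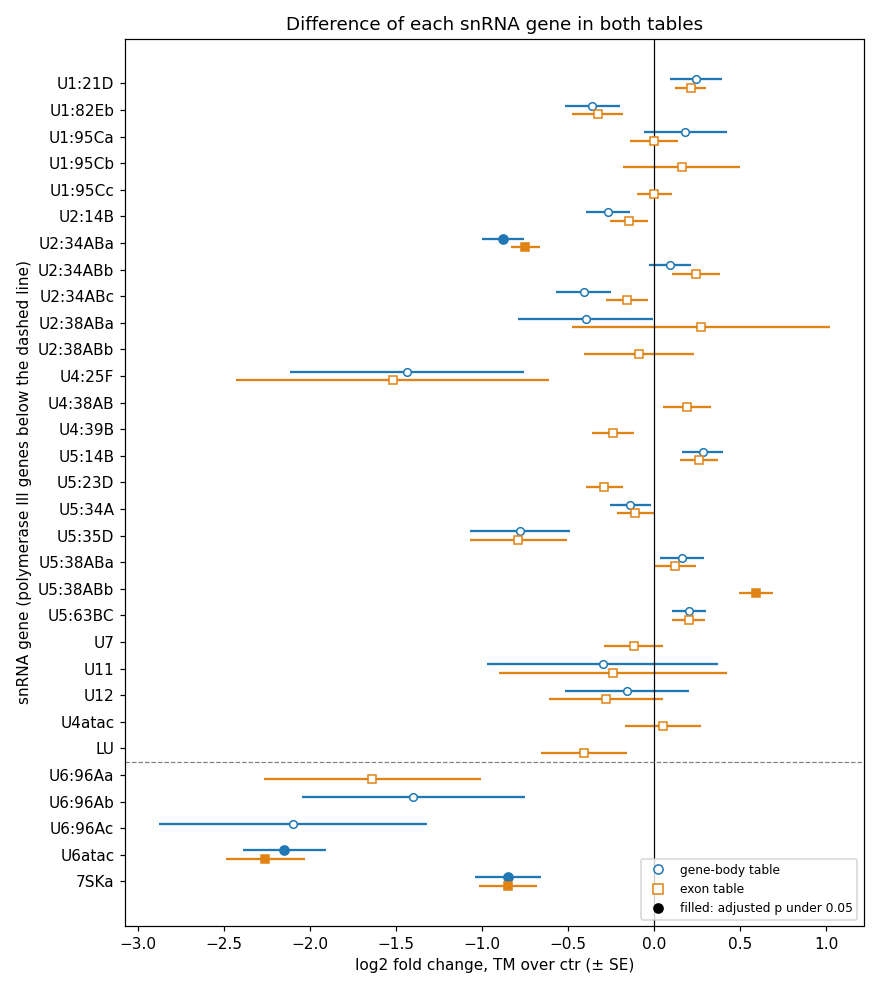
Log2 fold change of TM over ctr (± SE, horizontal axis) for each snRNA gene in the gene-body table (blue circles, 20 genes) and the exon table (orange squares, 29 genes; U6:96Ab and U6:96Ac, with 0 exon counts in most libraries, are not drawn). Filled symbols passed an adjusted p of 0.05: U6atac, 7SKa and U2:34ABa to the left in both tables and U5:38ABb to the right in the exon table.

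Among the polymerase II genes, snRNA:U2:34ABa stood apart in both tables. It had 48.6, 45.3, 39.2 and 41.4 CPM in TM replicates 1 to 4, against 87.0, 76.0 and 77.1 CPM in ctr replicates 1 to 3. No TM library came near a ctr library, and the spread within each group was small. It differed by a log2 fold change of -0.88 (SE 0.12, adjusted p = 0.000169, edgeR) in the gene-body table and -0.75 (SE 0.084, adjusted p = 6.73e-05) in the exon table. U2 RNA pairs with the branch point, and the copy beside it, snRNA:U2:34ABb, makes an RNA with 1 different base, G129A, counted from the 5′ end with the base of snRNA:U2:34ABa first. Both RNAs are shown because reads lying wholly within this pair of genes are told apart by that base alone, which is in capitals. Reads that run past the ends of the genes were not examined.
snRNA:U2:34ABa RNA (chr2L:13211925-13212116, minus strand): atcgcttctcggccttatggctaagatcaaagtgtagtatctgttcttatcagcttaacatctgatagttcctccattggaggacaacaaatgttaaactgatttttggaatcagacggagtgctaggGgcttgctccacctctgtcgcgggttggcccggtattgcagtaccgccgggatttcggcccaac
snRNA:U2:34ABb RNA (chr2L:13215839-13216030, plus strand): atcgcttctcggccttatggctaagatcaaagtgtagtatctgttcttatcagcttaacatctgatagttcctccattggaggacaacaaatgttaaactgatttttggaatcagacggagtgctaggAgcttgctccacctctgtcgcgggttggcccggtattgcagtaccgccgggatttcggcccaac

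snRNA:U2:34ABb did not share the difference. It had 107, 86.0, 78.6 and 73.5 CPM in TM, against 83.0, 78.1 and 83.2 CPM in ctr, in the gene-body table. The groups overlapped, with TM replicate 1 highest. Its log2 fold change was 0.09 (SE 0.12, adjusted p = 0.746, edgeR), and 0.24 (SE 0.14, adjusted p = 0.390) in the exon table. Within all U2 counts of the exon table, snRNA:U2:34ABa took 14.2%, 16%, 14.3% and 15.8% in TM and 24.9%, 25.4% and 22% in ctr. snRNA:U2:34ABb took 52.3%, 49.5%, 46.0% and 43.1% in TM and 38.6%, 35.7% and 41.7% in ctr. The shares of both genes were separate between the groups and moved in opposite directions, and the U2 sum differed less, at 690 ± 72.9 CPM in TM (SD, n = 4) and 725 ± 48.2 CPM in ctr (SD, n = 3). Shares of a class add up to a fixed whole, so a fall in any share is matched by rises among the others. Only 6.75% of the 30-base words of snRNA:U2:34ABa and 0% of those of snRNA:U2:34ABb, whose RNA is identical to that of snRNA:U2:34ABc, occurred once in the genome.

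The other U2 genes had lower means in TM in the gene-body table without passing the test. snRNA:U2:14B had a log2 fold change of -0.27 (SE 0.13, adjusted p = 0.207, edgeR), snRNA:U2:34ABc -0.41 (0.16, 0.124) and snRNA:U2:38ABa -0.40 (0.39, 0.602), and TM libraries lay below all ctr libraries for the first and second of these. In the exon table their values were -0.15, -0.16 and 0.27. snRNA:U2:38ABa swung from 8.55 to 74.8 CPM within ctr there, and 0% of its words occurred once.

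**Figure D5:**
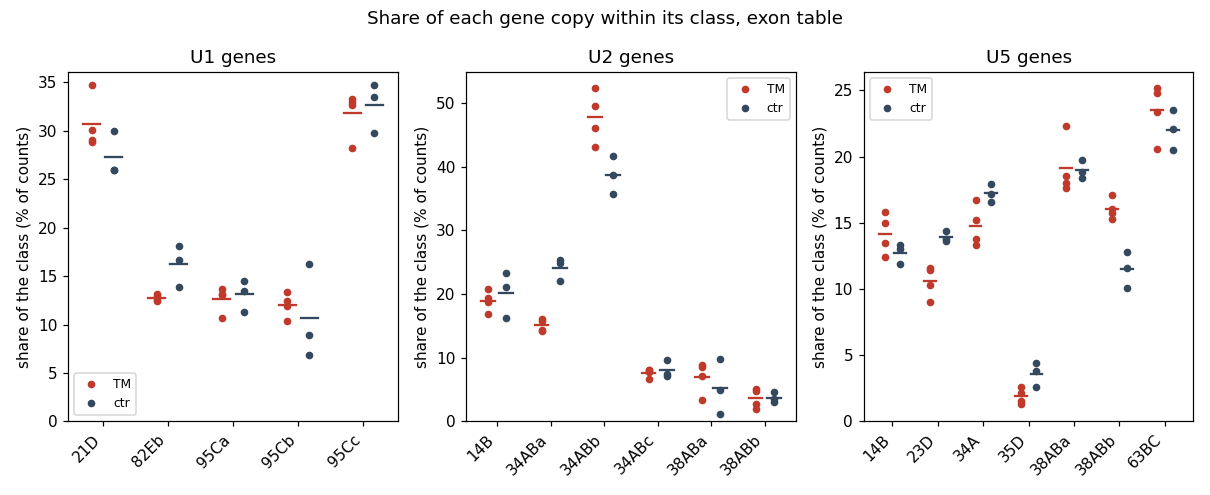
Share of each gene copy in the exon-table counts of its class (%, axis from 0) for U1, U2 and U5, with a point for each TM (red, left) and ctr (dark, right) library and a bar at the mean. U2:34ABa lies at 14.2% to 16% in TM and 22% to 25.4% in ctr, U2:34ABb and U5:38ABb are higher and U5:23D lower in TM, and U1 shares overlap apart from 82Eb.

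U5 RNA, which aligns the exons, was the class with the only snRNA gene that rose. snRNA:U5:38ABb (chr2L:19816414-19816540, plus strand) had 60.1, 57.4, 58.6 and 52.4 CPM in TM replicates 1 to 4, against 39.7, 40.3 and 33.7 CPM in ctr replicates 1 to 3, in the exon table. All TM libraries were above all ctr libraries. This rise was a log2 fold change of 0.59 (SE 0.10, adjusted p = 0.00289, edgeR). It lies within the gene sick on the same strand and so has 0 gene-body counts, and sick itself rose by a log2 fold change of 0.33 (SE 0.10, adjusted p = 0.0484) in the gene-body table. Per length, snRNA:U5:38ABb (exon table) stood at 450 CPM per kb in TM and 298 in ctr, against 9.14 and 7.29 for sick (gene-body table), 40.9 times the level of sick in ctr. The other snRNA genes inside sick, snRNA:U4:38AB and snRNA:U2:38ABb, had log2 fold changes of 0.19 (SE 0.14, adjusted p = 0.522) and -0.09 (SE 0.32, adjusted p = 0.935). Only 32.7% of the 30-base words of snRNA:U5:38ABb occurred once in the genome, so the division of reads among the U5 genes is uncertain.

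None of the other U5 genes passed the test in either table. snRNA:U5:38ABa, the U5 gene with the most counts, had 170, 118, 119 and 115 CPM in TM and 130, 106 and 115 CPM in ctr in the gene-body table. Its groups overlapped, and TM replicate 1 stood above the other libraries of both groups. The log2 fold change was 0.16 (SE 0.13, adjusted p = 0.515, edgeR). snRNA:U5:35D, with 227, 300, 146 and 150 counts in TM and 241, 419 and 337 counts in ctr, had the lowest fold change of the U5 genes at -0.78 (SE 0.29, adjusted p = 0.0976). Those of snRNA:U5:14B, snRNA:U5:34A and snRNA:U5:63BC were 0.28, -0.14 and 0.20. snRNA:U5:23D, inside FASN2 and counted in the exon table alone, had 39.3, 32.3, 39.1 and 39.5 CPM in TM and 49.2, 42.6 and 46.1 CPM in ctr. Its TM libraries lay below all ctr libraries (log2 fold change -0.29, SE 0.11, adjusted p = 0.168), and its share of U5 counts was 9.01% to 11.6% in TM and 13.6% to 14.4% in ctr. The U5 sum was 356 ± 19.0 CPM in TM (SD, n = 4) and 330 ± 14.5 CPM in ctr (SD, n = 3) in the exon table.

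U1 RNA, which recognizes the 5′ splice site, summed to 276 ± 16.9 CPM in TM (SD, n = 4) and 270 ± 35.9 CPM in ctr (SD, n = 3) in the exon table. snRNA:U1:82Eb, the U1 gene with the most gene-body counts, had 51.3, 49.3, 44.0 and 45.6 CPM in TM, against 68.7, 43.4 and 71.6 CPM in ctr. Its ctr replicate 2 lay below every TM library, and the other 2 ctr libraries lay above them. In the test it had a log2 fold change of -0.36 (SE 0.16, adjusted p = 0.167, edgeR). Without ctr replicate 2 it was -0.56 and passed (adjusted p = 0.0251, edgeR). This was the only 1 of 14 alternatives to pass, and values over them ran from -0.56 to -0.24. The remaining U1 genes had log2 fold changes between 0.00 and 0.24 in the tables that counted them, none of which passed. The 5 U1 RNAs were 98.2% to 100% identical, with 3 identical pairs, so the division of reads among them is uncertain.

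U4 RNA keeps U6 inactive until the spliceosome assembles. snRNA:U4:25F, the only U4 gene with gene-body counts, had 36, 37, 25 and 23 counts in TM and 124, 41 and 64 in ctr. TM counts lay below all ctr counts only by a narrow margin to ctr replicate 2. This gave a log2 fold change of -1.44 (SE 0.68, adjusted p = 0.209, edgeR). It took 0.296% to 0.573% of U4 counts in TM and 0.818% to 1.99% in ctr in the exon table; snRNA:U4:38AB and snRNA:U4:39B carried the rest, and the U4 sum was 119 ± 14.4 CPM in TM (SD, n = 4) and 120 ± 11 CPM in ctr (SD, n = 3).

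The polymerase II genes of the minor spliceosome had few counts. snRNA:U11 had 161, 97, 15 and 21 gene-body counts in TM and 99, 74 and 73 in ctr. snRNA:U12 had 295, 221, 121 and 110 in TM and 129, 206 and 249 in ctr. TM libraries fell on both sides of ctr for both genes, with TM replicates 1 and 2 above TM replicates 3 and 4. Log2 fold changes were -0.30 (SE 0.67, adjusted p = 0.846, edgeR) for snRNA:U11 and -0.16 (SE 0.36, adjusted p = 0.840) for snRNA:U12, and for both the sign turned when 1 library was left out. snRNA:U4atac, inside the gene cno, had 10.9 to 21.5 CPM in TM and 13.9 to 19.6 CPM in ctr in the exon table (log2 fold change 0.05, SE 0.22, adjusted p = 0.952). Of the 4 snRNAs particular to the minor spliceosome, only U6atac, the one read by polymerase III, passed the test.

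snRNA:U7 and snRNA:LU, outside the spliceosome or of no role given here, did not pass the test. snRNA:U7, inside Eip63E, had 25.0, 20.5, 20.3 and 25.8 CPM in TM and 24.0, 20.4 and 30.4 CPM in ctr in the exon table. The groups overlapped fully (log2 fold change -0.12, SE 0.17, adjusted p = 0.789, edgeR), while its host Eip63E fell in the gene-body table (log2 fold change -0.73, adjusted p = 0.000166). snRNA:LU, inside FASN2, had 8.52, 6.78, 5.41 and 7.0 CPM in TM and 10.3, 6.90 and 10.3 CPM in ctr (-0.41, SE 0.25, adjusted p = 0.438). Over the 11 snRNA genes inside a host gene, the level per length of the snRNA (exon table) was from 2.8 times (snRNA:U4atac in cno) to 450 times (snRNA:U6:96Aa in Esyt2) that of the host (gene-body table) in ctr. snRNA:U6:96Aa was credited with a mean of 99.7% of the ctr counts of the identical U6 genes, so its level may hold reads of the others.

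Other short RNA genes read by polymerase III were set beside the snRNAs, a list added after seeing the values. Of 222 tRNA genes tested in the gene-body table, 42 fell and 2 rose, while of all 10917 genes tested 6.38% fell and 4.45% rose. The median log2 fold change of the tRNA genes was -0.80, against 0.029 over all genes. Summed over all 290 tRNA genes listed, tested or not, the level was 5260.6 CPM in TM replicate 1 and between 2912.3 and 3306.6 CPM in the other TM libraries. In ctr it was 5021.2 to 5935.9 CPM, so TM replicate 1 lay within the ctr range here. RNaseMRP:RNA, the RNA of the ribonuclease MRP, had 98.5, 69.8, 91.0 and 75.3 CPM in TM and 215, 192 and 165 CPM in ctr, and it fell (log2 fold change -1.19, SE 0.12, adjusted p = 1.02e-05, edgeR). The 2 genes of 7SL RNA, the RNA of the signal recognition particle, did not pass (7SLRNA:CR42652 -0.96, SE 0.78, adjusted p = 0.505, and 7SLRNA:CR32864 -0.89, SE 0.77, adjusted p = 0.535), and over these 3 genes the exon table gave log2 fold changes from -1.20 to 0.45, with 1 positive. Of 10 5S ribosomal RNA genes tested, 0 passed in either direction (edgeR, 0 at an unadjusted p under 0.05), with a median of 0.44. All 100 5S genes listed, most of them below the count filter, summed to 23 to 37.2 CPM in TM and 36.1 to 39.6 CPM in ctr. Of 8 tested in the exon table, 0 passed and 4 had an unadjusted p under 0.05 (edgeR), and the median over the 8 was 0.70. The 11 5S genes with counts there summed to 17 to 24.6 CPM in TM, above the 8.17 to 15.2 CPM in ctr. The mean 5S sum in TM was 0.824 times that of ctr in the gene-body table and 1.82 times in the exon table. These sums take in genes that were not tested, so they do not cover the same genes as the medians.

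Proteins that make, process and bind snRNAs were followed through a list of 78 genes, of which 72 were tested in the gene-body table. Of these, 3 rose and 4 fell, close to the 10.8% of all genes that passed in either direction, and their median log2 fold change was 0.08. Of SNAPc, which binds the proximal sequence element, Pbp95 had 65.7, 59.4, 54.9 and 64.1 CPM in TM and 78.6, 78.9 and 66.1 CPM in ctr (log2 fold change -0.29, SE 0.12, adjusted p = 0.136, edgeR). Pbp45 had 11.4, 13.5, 13.7 and 12.7 CPM in TM and 10.6, 9.36 and 10.7 CPM in ctr (0.33, SE 0.25, adjusted p = 0.478), and Pbp49 had 0 gene-body counts. The values of these subunits ran in opposite directions and neither passed.

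The genes of the list that passed came from different steps. IntS3, a subunit of the Integrator complex that cleaves snRNA 3′ ends, had 52.9, 50.5, 63.9 and 87.8 CPM in TM and 108, 106 and 103 CPM in ctr and fell by 0.72 on the log2 scale (SE 0.16, adjusted p = 0.00717, edgeR); it was the only 1 of 13 Integrator genes tested to pass. lilli and Eaf, assigned in the list to the elongation complexes at snRNA genes, fell by 0.44 on that scale (adjusted p = 0.00445) and 0.28 (adjusted p = 0.0432). bin3, the fly counterpart of the enzyme that caps 7SK RNA, fell by 0.45 (adjusted p = 0.00237), from a list of 5 partners of 7SK of which the others did not pass. LSm7, part of the LSm ring that binds the 3′ end of U6, had 31.0, 38.5, 48.2 and 42.5 CPM in TM and 22.5, 22.3 and 22.4 CPM in ctr and rose by 0.84 (SE 0.18, adjusted p = 0.00581). Phax, the adaptor for snRNA export, and snRNP-U1-C, a U1 particle protein, each rose by 0.40 (adjusted p = 0.0196 and 0.0487). The number that passed ranged from 4 to 14 on leaving out single libraries: it was 4 without TM replicate 3 or any 1 ctr library, and 14 without TM replicate 4.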

How the data were processed

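GRO-seq libraries of cycle 14 embryos (4 TM, 3 ctr) were counted by the authors, and both deposited tables hold unpooled values. In the gene-body table the deposited values are raw read counts: reads were trimmed with Cutadapt, aligned with Bowtie2 2.3.3.1 to dm6, kept above a mapping quality limit with SAMtools 1.10.0, and counted on the sense strand over whole genes with featureCounts of Subread 1.5.3. In the exon table the authors' values are estimated counts per gene and repeat family (TEtranscripts). They were whole numbers and used as deposited. The aligner of the exon table, and how reads with several places were assigned to genes there, are not given in the sources used here. The study describes the libraries of each group as biological replicates.

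After removal of genes averaging under 10 counts, each table was fitted with edgeR 4.0.16 (TMM scaling, quasi-likelihood test, R 4.3.3), and p-values were adjusted over all features tested, with a threshold of 0.05. CPM are counts scaled to the TMM-adjusted library size, per kb where divided by gene length. Fold changes are TM over ctr. The fit was tested on simulated data. Alternatives were DESeq2 1.42.0, other scalings, no filter or a mean of 50 counts, genes without repeats, a replicate block, the other table, and leaving out each library. The number of counts in each library sets the precision, and intervals of counting error were not computed. Gene positions were taken from the Ensembl reference annotation and sequences from the RefSeq copy of the same build (dm6); all 31 genes have the same coordinates there as in the gene-body table.

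Genes are named by rule: members that passed in either table, the member of each class with the most gene-body counts, 7SK, the SNAPc subunits and pathway genes that passed, and the targeted genes. Others were named after their values were seen. The members and lists were chosen with earlier results of these data known. List entries without a match in the tables, among them IntS8, LSm2 and hoip, were not analysed here. The sequence of the U6 RNA is not reported here.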

Additional observations from a re-analysis of the deposited data

Results flagged for a closer look

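Among the 4 TM libraries, 1 library lay far from the other 3 (Dixon's test on the ratio of its gap to the group's range) in 6 of 51 measures of snRNA genes, where chance gives about 2.55. TM replicate 1 was the high library in 4 of them: snRNA:U5:38ABa in the gene-body table (170 CPM with the others at 119 or less, ratio 0.927) and, in the exon table, snRNA:U5:38ABa (85.1 against 61.8 to 63.2, ratio 0.94), snRNA:U4:38AB (88.2 against 63.2 to 67.4, ratio 0.832) and snRNA:U6:96Aa (78.6 against 17.9 to 22.5, ratio 0.924). The measures of 1 gene in both tables share their libraries. TM replicate 2 was the low library for snRNA:U5:23D in the exon table (32.3 CPM against 39.1 to 39.5, ratio 0.944). TM replicate 4 was the only TM library with counts for snRNA:U6:96Ab in the exon table (4.81 CPM against 0, ratio 1), a gene identical in sequence to its neighbors.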

How the results depend on the processing

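The number of snRNA genes that passed was 2 to 4 over 13 alternatives in the gene-body table, where it was 3, and 3 to 5 over 14 in the exon table, where it was 4. snRNA:U6atac and snRNA:U2:34ABa passed under all 14 alternatives each, with log2 fold changes from -2.34 to -2.0 and from -0.93 to -0.75, and snRNA:U5:38ABb passed under all 14 with 0.51 to 0.64. snRNA:7SKa passed under 10 of 14. Signs turned for snRNA:U11 without TM replicate 3 (0.03), for snRNA:U12 without TM replicate 4 (0.01) and without ctr replicate 3 (0.09), for snRNA:U2:34ABb without TM replicate 1 (-0.04) and for snRNA:U6:96Ab in the exon table (8.29, SE 3.65), where 1 library held all its counts; apart from that last case the cause was not tested. On leaving out single libraries, the values ran from -1.0 to 0.03 for snRNA:U11, -0.44 to 0.09 for snRNA:U12 and -0.04 to 0.15 for snRNA:U2:34ABb. The pathway genes that passed numbered 4 to 14 when single libraries were left out, against 7.

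Replicate numbers did not pair the samples: deviations of same-numbered TM and ctr libraries correlated at 0.0086, -0.0049 and -0.018 in the gene-body table. With the replicate block 3 snRNA genes passed in the gene-body table, 4 in the exon table and 10 pathway genes. Few counts for U6, U4:25F and U11 (as few as 4 in a library) and identical copies limit what single genes can show.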
